A study of Mus musculus with 57 samples.

Results

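Endothelial cells line every blood vessel of the kidney and carry on their surface the proteins that leukocytes hold on to and that seal one cell to the next. The genes described here are Sele and Selp, which encode E-selectin and P-selectin, Icam1, Icam2 and Vcam1, which encode immunoglobulin-type adhesion receptors, Pecam1 and Cdh5, which encode junction proteins, Emcn, which encodes endomucin, and Procr, which encodes the endothelial protein C receptor. They were chosen by name, and each gene was read from a probe set annotated with that symbol alone, taking the one with the highest mean where there were several. Of the 9 genes listed, 8 were measured in this way, among 19938 genes with such a probe set, and all 8 were among the 19302 genes tested. Selp had no probe set of its own and was not analysed here.

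The study asked which messages are being translated in separate cell populations of the mouse kidney after ischemia-reperfusion injury (IRI), in which the vessels to both kidneys are clamped and then released, here for 28 min. It used translating ribosome affinity purification (TRAP): a Cre recombinase switches on the ribosomal protein L10a fused to eGFP (Rosa26-CAGGS-eGFPL10a) in chosen cells, and an antibody to GFP pulls down their ribosomes with the RNA on them. The RNA was read on 57 arrays in 19 groups, 51 of them from pulldowns and 6 from total kidney RNA. All mice were male, and the strain label names a mixture of C57BL/6 and 129, while the titles of the WT samples give C57BL/6.

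The endothelial line carried cdh5-CRE (6 weeks of age), the interstitial line foxd1-CRE (6 weeks), the nephron line six2-CRE (8 weeks for IRI and sham, 6 weeks without surgery) and the myeloid line lyz2-CRE (9.5 weeks for IRI, 7 weeks for the others). Every line had 3 arrays at 24 h after IRI, 3 after sham surgery and 3 without surgery, and the nephron line had 3 more at 4 h after IRI with no 4 h sham. Background pulldowns came from L10a mice without a Cre (4 arrays of IRI at 24 h and 2 of sham) and from WT mice (4 of IRI at 24 h and 2 of sham), all 8 weeks old. The WT mice lack the tagged ribosome, and the source label of the L10a mice calls them homozygous where their genotype label gives 1 copy. Total RNA came from Cre-negative heterozygous littermates of 8 weeks (3 of IRI at 24 h and 3 of sham). The Cre driver limits what a line stands for: cdh5-CRE is driven by regulatory sequence of Cdh5, itself one of the genes described, and also marks blood cells that descend from endothelium in the embryo, foxd1-CRE marks stromal descendants, six2-CRE marks nephron epithelium, and lyz2-CRE marks neutrophils as well as macrophages.

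In an inflamed vessel, selectins catch passing leukocytes and let them roll, after which ICAM-1 and VCAM-1 bind leukocyte integrins and hold the cell in place. PECAM-1 and VE-cadherin join neighbouring endothelial cells and are passed or loosened when leukocytes leave the vessel, while endomucin on resting endothelium covers adhesion receptors. The protein C receptor presents protein C to the thrombin-thrombomodulin complex, which turns it into an anticoagulant. Cytokines such as TNF and interleukin 1 raise Sele, Icam1 and Vcam1 through the transcription factor NF-kB.

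On the mouse assembly GRCm38.p6 the genes lie at chr1:164039614-164058487 (Sele), chr1:164115264-164150026 (Selp, beside Sele), chr9:21015940-21028814 (Icam1), chr11:106377656-106388139 (Icam2), chr3:116110020-116129688 (Vcam1), chr11:106654213-106715281 (Pecam1), chr8:104101613-104144504 (Cdh5), chr3:137341062-137431069 (Emcn) and chr2:155751125-155755478 (Procr). RefSeq promoter windows, 250 bases before to 50 after a transcription start site, were at hand for 5 of the 9, and those of all 4 measured genes among them are printed. Of these, Sele, Procr and Icam1 gave the largest rises in the endothelial line after IRI, and Emcn was not called there. Capitals mark a match to either of a pair of motifs, GGANNTTCC, which resembles the NF-kB site, and TGANTCA, the AP-1 site, each searched on both strands. The first motif was added after the sequences had been seen. The stricter NF-kB consensus, searched before it, was in none of the 5 windows, and 4.3% of all windows held it. Each window is on the plus strand and is written 5′ to 3′.
Sele, chr1:164047984-164048283: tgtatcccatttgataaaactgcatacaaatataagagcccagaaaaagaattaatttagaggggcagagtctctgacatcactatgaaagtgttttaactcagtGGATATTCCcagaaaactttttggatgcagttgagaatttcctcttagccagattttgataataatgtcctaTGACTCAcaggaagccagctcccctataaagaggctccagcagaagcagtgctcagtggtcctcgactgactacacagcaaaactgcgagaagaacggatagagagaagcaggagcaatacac
Icam1, chr9:21015690-21015989: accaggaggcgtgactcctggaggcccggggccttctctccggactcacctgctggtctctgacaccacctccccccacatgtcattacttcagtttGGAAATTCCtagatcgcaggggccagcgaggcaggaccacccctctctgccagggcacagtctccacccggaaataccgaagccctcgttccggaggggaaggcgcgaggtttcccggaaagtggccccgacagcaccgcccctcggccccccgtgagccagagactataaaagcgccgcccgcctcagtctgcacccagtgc
Procr, chr2:155750967-155751266: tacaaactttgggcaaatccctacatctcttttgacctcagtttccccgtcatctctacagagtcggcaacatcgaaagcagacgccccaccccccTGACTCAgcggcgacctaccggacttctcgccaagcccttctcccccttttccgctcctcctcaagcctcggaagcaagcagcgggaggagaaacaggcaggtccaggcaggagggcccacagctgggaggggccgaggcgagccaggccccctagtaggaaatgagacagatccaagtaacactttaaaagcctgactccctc
Emcn, chr3:137340828-137341127: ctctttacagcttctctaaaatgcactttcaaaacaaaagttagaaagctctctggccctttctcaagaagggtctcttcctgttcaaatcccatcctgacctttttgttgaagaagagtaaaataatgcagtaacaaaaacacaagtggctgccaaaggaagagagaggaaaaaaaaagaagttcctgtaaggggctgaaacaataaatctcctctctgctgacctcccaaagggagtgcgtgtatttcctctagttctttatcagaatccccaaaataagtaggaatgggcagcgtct
The Sele window held GGATATTCC at bases 106 to 114 and TGACTCA at bases 178 to 184, counted from its first base. The start site behind this window lies inside the annotated span of Sele. The Icam1 window held GGAAATTCC at bases 98 to 106, and the Procr window held TGACTCA at bases 97 to 103. Neither motif was in the Emcn window. Among all 27025 RefSeq windows of the same length, 4.2% held GGANNTTCC and 7.9% held TGANTCA. The shorter letters AGGAA, the core of ETS-factor sites, were found 6 times in the Emcn window and 1 to 3 times in each of the others, and 66.8% of all windows held them. Another ETS core, CCGGAA, was found 3 times in the Icam1 window and in none of the others, Emcn among them. Of all windows, 15.2% held CCGGAA. These are matches of letters and say nothing of which factor binds.

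The deposited values are normalized intensities, given here as log2, and each group mean stands beside its SD over arrays. A probe set's intensity depends on its probes, so levels are compared between samples and not between genes, and the arrays' number limits the precision. The total RNA arrays had medians of 43.9 to 53.3 against 105.8 to 128.4 in the pulldown arrays, so no level is compared across these. Replicate arrays correlated at 0.985 or above in 17 of the groups; total RNA IRI replicate 3 (lowest r 0.920) and WT IRI replicate 1 (0.968) stood apart from theirs. In whole-tissue or pulldown RNA, fewer cells of a type and less RNA per cell cannot be told apart.

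Before any surgery the endothelial line stood farthest above the other lines for the junction genes Pecam1 and Cdh5, the adhesion receptor Icam2 and the sialomucin Emcn. Against the mean of the interstitial, nephron and myeloid lines, 6 of the 8 genes were higher in the endothelial line and none was lower, where 40.9% of all genes tested were called in either direction (20.7% higher). Pecam1 was 11.2-fold higher (log2 difference 3.49 ± 0.16 SE, limma adjusted p = 1.4e-21), Cdh5 9.52-fold (3.1e-20), Icam2 7.01-fold (1.5e-27) and Emcn 5.3-fold (7.2e-15). Procr (2.06-fold, adjusted p = 9.5e-06) and Icam1 (2.02-fold, 9e-06) were higher by less. Vcam1 (log2 difference 0.41, 95% interval -0.13 to 0.94) and Sele (0.12, -0.19 to 0.44) did not pass the test. The label of the line fits its markers: Kdr, the VEGF receptor that marks endothelium, averaged 12.38 in endothelial arrays without surgery, against 9.11 in interstitial, 6.90 in nephron and 9.96 in myeloid arrays.

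Pecam1, which also occurs on platelets and leukocytes, read 12.02, 11.91 and 12.02 in endothelial arrays without surgery, against 8.44, 9.16 and 8.99 in interstitial, 6.96, 6.96 and 6.89 in nephron and 9.50, 9.71 and 9.82 in myeloid arrays. Cdh5, which encodes VE-cadherin, read 12.41, 12.22 and 12.24 in endothelial arrays, against 9.54, 9.61 and 10.16 in interstitial, 6.93, 7.45 and 7.25 in nephron and 10.00, 10.04 and 10.34 in myeloid arrays. For both genes the endothelial arrays lay clear of every other line, and the nephron arrays lay lowest. Emcn was different: interstitial arrays read 12.06, 12.22 and 12.17, close under the 12.87, 12.88 and 12.93 of endothelial arrays. The endothelial line was 1.67-fold above the interstitial line for Emcn (adjusted p = 0.0057; 39.9% of all genes called between these lines), and the interstitial line was itself 2.67-fold above the mean of the other 3 lines (1.6e-08; 32.4% called, 12.9% higher). The interstitial line was below that mean for Icam2 (log2 difference -1.27) and Pecam1 (-0.67). For Emcn, the L10a pulldown without a Cre read close to the interstitial line. It averaged 11.97 after sham and 12.27 after IRI, against 12.17 and 12.26 in the interstitial line. The nephron line was below the mean of the others for 7 of the 8 genes, from Emcn (log2 difference -4.24) and Cdh5 (-3.52) to Procr (-0.63, adjusted p = 0.0043), where 51% of all genes were called (29% higher, 22% lower).

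Vcam1, the ligand of the integrin VLA-4, had its highest level without surgery in the myeloid line, at 11.42, 11.17 and 11.14, against 10.09, 10.13 and 10.42 in endothelial arrays. The endothelial level of Vcam1 was 2.04-fold below the myeloid level (adjusted p = 0.018; 19.5% of all genes called between these lines), and the arrays did not overlap. Against the mean of the other 3 lines, the myeloid line was 3.43-fold higher for Vcam1 (limma adjusted p = 4.3e-07; 37.4% of all genes called). Nephron arrays without surgery spread widely for Vcam1, from 7.69 to 9.52. Sele lay between 6.54 and 7.05 in all arrays of the 4 lines without surgery. As intensities its means ran from 96.0 in the interstitial to 122.2 in the nephron line. The medians of whole pulldown arrays were 105.8 to 128.4, and whether Sele was above background there was not tested.

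**Figure D1:**
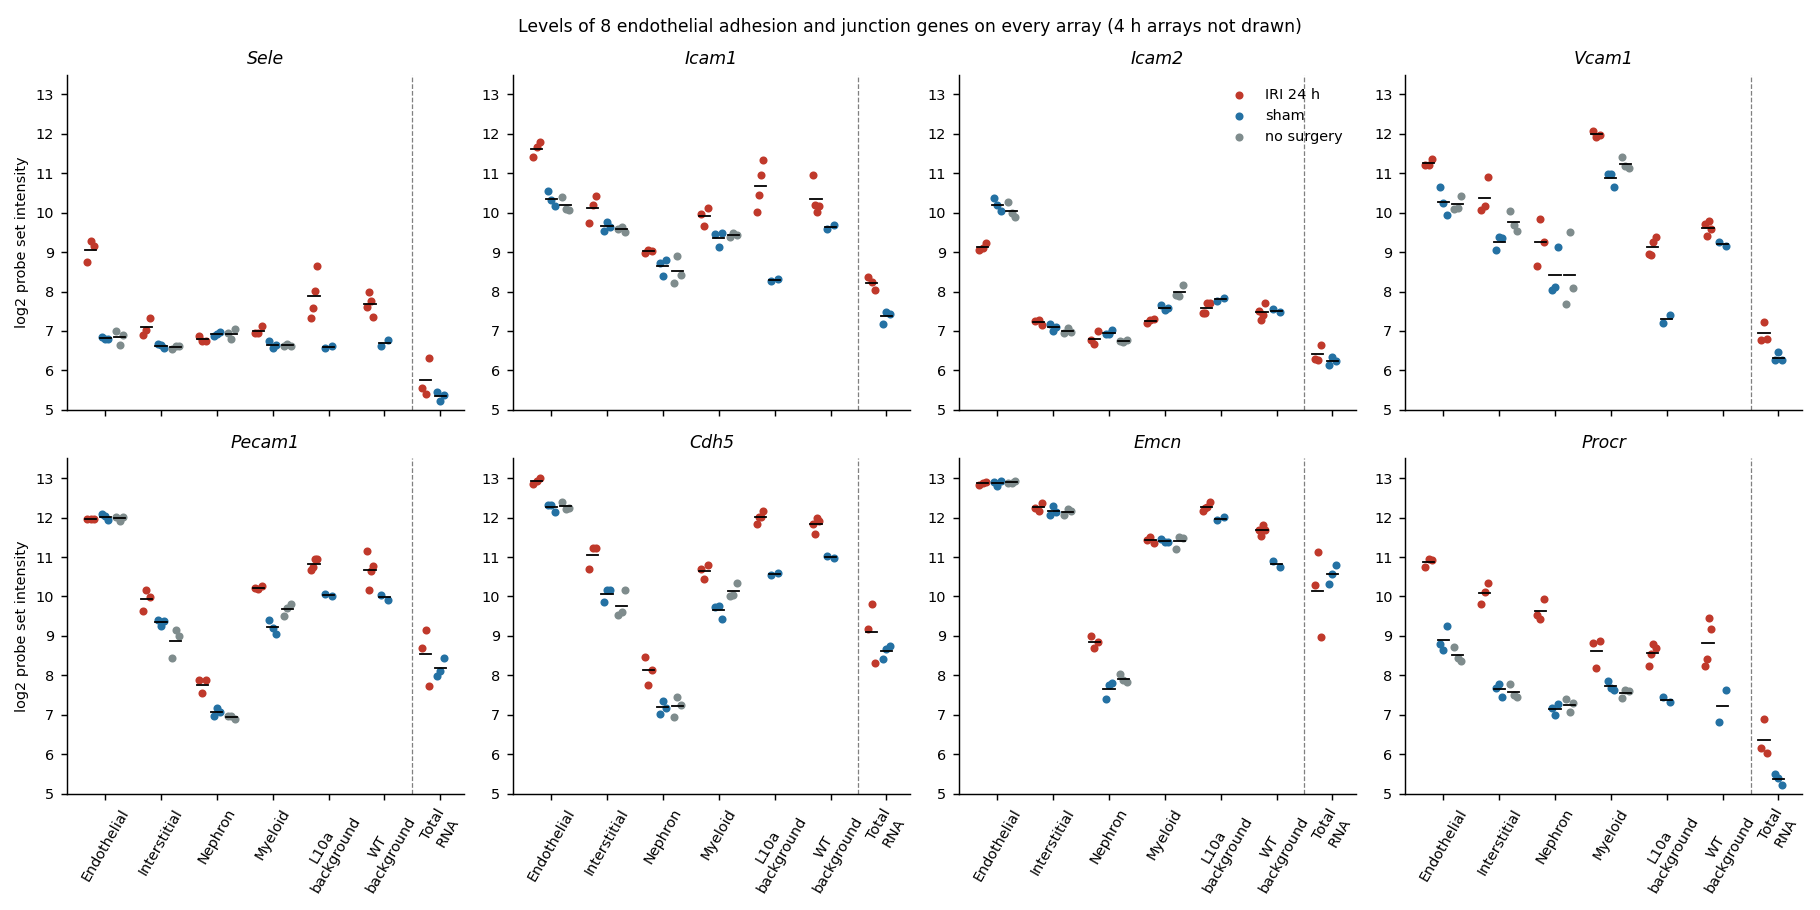
Log2 intensity of the 8 genes in each array (points) at 24 h after IRI, after sham and without surgery, by source of RNA; bars are group means, the dashed line separates the total RNA arrays, whose levels are on a scale of their own, and 4 h arrays are not drawn. Sele stood at 8.75 to 9.28 in endothelial arrays after IRI, above every other pulldown array, while the endothelial arrays for Emcn and Pecam1 overlapped between the 3 conditions.

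At 24 h after IRI the endothelial line carried more Sele, Procr, Icam1, Vcam1 and Cdh5 than after sham surgery, and less Icam2. Pecam1 and Emcn differed by less than their error. Against sham, 5 of the 8 genes rose and 1 fell, where 42.8% of all genes tested were called (21.1% higher, 21.7% lower). The median log2 difference of the 8 genes was 0.82, against 0.07 over all genes tested. Sham surgery itself moved none of the 8 in the endothelial line against no surgery, by limma and also at an unadjusted p under 0.05, where 0.85% of all genes were called.

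Sele, which is made by activated endothelium, read 8.75, 9.28 and 9.15 in endothelial arrays after IRI, against 6.85, 6.79 and 6.80 after sham and 6.99, 6.65 and 6.89 without surgery. The IRI arrays lay far above both other groups, which overlapped each other. As intensities, the sham and no-surgery means of 112.4 and 114.8 lay within the range of pulldown array medians, 105.8 to 128.4. The difference from sham was 2.25 ± 0.19 (SE) on the log2 scale, 4.75-fold, with a limma adjusted p of 6.7e-13.

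Icam1, whose product binds the leukocyte integrins LFA-1 and Mac-1, read 11.42, 11.66 and 11.80 after IRI, against 10.54, 10.31 and 10.17 after sham. It was 2.44-fold higher (log2 difference 1.29 ± 0.22 SE, adjusted p = 5.3e-06). Vcam1 read 11.21, 11.20 and 11.36 after IRI, against 10.65, 10.23 and 9.95 after sham, a 1.97-fold difference (0.98 ± 0.32 SE, 0.013). For both genes every IRI array was above every sham array. The Vcam1 call rests on sham replicate 3: without it the log2 difference was 0.82 with an adjusted p of 0.072.

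Icam2, a ligand of LFA-1 that resting endothelium makes all the time, went the other way. It read 9.05, 9.10 and 9.23 after IRI, against 10.38, 10.19 and 10.03 after sham and 10.28, 9.99 and 9.88 without surgery. The IRI arrays did not overlap either group, and the level was 2.11-fold lower than after sham (log2 difference -1.07 ± 0.11 SE, adjusted p = 3.2e-11).

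Of the junction genes, Cdh5 read 12.84, 12.93 and 13.00 in endothelial arrays after IRI, against 12.32, 12.31 and 12.15 after sham. It was 1.59-fold higher (log2 difference 0.67 ± 0.20 SE, adjusted p = 0.0071), and the arrays did not overlap. Pecam1 read 11.96, 11.97 and 11.97 after IRI, against 12.09, 12.03 and 11.94 after sham, and the groups overlapped (log2 difference -0.05, 95% interval -0.45 to 0.35). Emcn read 12.82, 12.88 and 12.91 after IRI, against 12.91, 12.80 and 12.93 after sham (-0.01, -0.46 to 0.43), again with overlap.

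Procr read 10.74, 10.94 and 10.92 in endothelial arrays after IRI, against 8.81, 8.65 and 9.26 after sham. It was 3.9-fold higher (log2 difference 1.96 ± 0.23 SE, adjusted p = 2.1e-09), with no overlap. Of the other genes of the protein C, thrombin and fibrinolysis list, 5 rose and 4 fell among 14 tested of 16 listed, with a median of 0.18. F3, which encodes tissue factor, rose by 2.55 ± 0.22 (SE, adjusted p = 6.6e-13), Plat, tissue plasminogen activator, by 1.42 ± 0.26 (2.2e-05) and Thbd, thrombomodulin, by 0.88 ± 0.23 (0.0014). Tfpi, the inhibitor of the tissue factor pathway, fell by 0.84 on the log2 scale (SE 0.17, 0.0001).

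**Figure D2:**
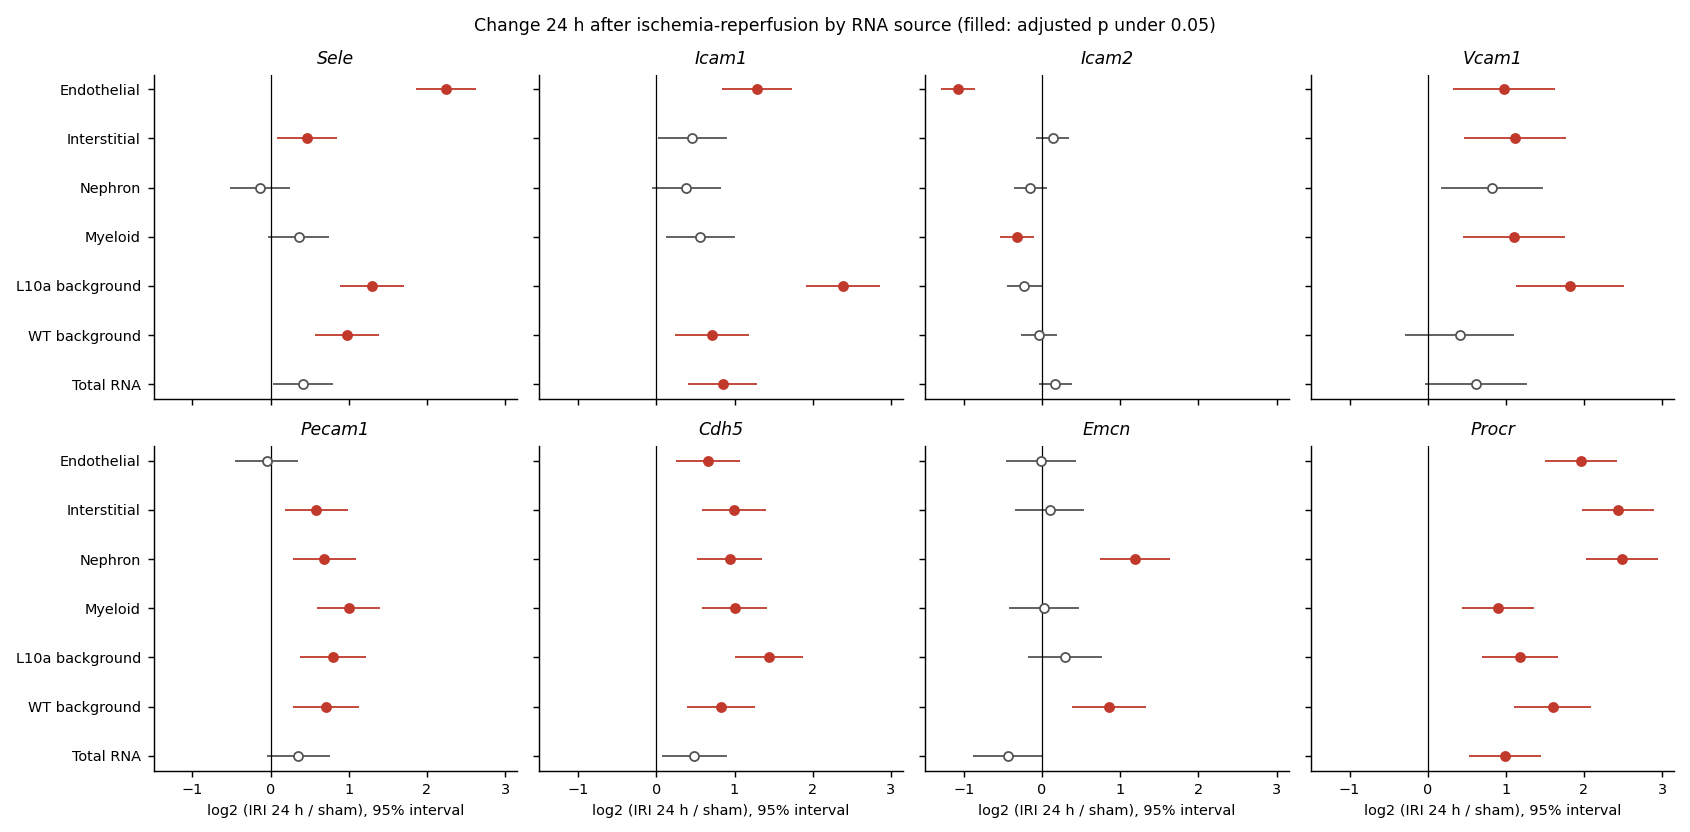
Log2 difference of IRI at 24 h over sham for the 8 genes in each of 7 sources of RNA, with its 95% interval; filled points have a limma adjusted p below 0.05. Sele is far to the right in the endothelial line and Icam2 far to the left there, while Procr is to the right of 0 in every source.

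Other genes around the same functions moved in both directions in the endothelial line after IRI. Of 18 inflammatory and NF-kB target genes tested (20 listed), 10 rose and 2 fell, with a median log2 difference of 0.61. Among them the chemokine genes Ccl2 (3.09 ± 0.28 SE, adjusted p = 5.3e-12) and Cxcl1 (2.13 ± 0.33, 1.1e-06), the cytokine Il6 (2.46 ± 0.45, 1.6e-05) and Tnfaip3, an inhibitor of NF-kB (1.91 ± 0.18, 8.1e-12), were higher. Of 22 other junction genes tested (24 listed), 7 rose and 6 fell (median 0.07). Pvr, an adhesion receptor of the nectin family, rose by 2.05 ± 0.20 (3.7e-11) and Mcam, CD146, by 1.42 ± 0.21 (4.7e-07), while Cd99l2 fell by 0.92 (SE 0.18, 4.1e-05) and Ctnnb1, beta-catenin, by 0.85 (SE 0.22, 0.0015).

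Of 28 endothelial identity genes, all tested, 6 rose and 9 fell after IRI in the endothelial line (median -0.17). The angiopoietin receptor Tek fell by 1.77 (SE 0.33, adjusted p = 2.1e-05), the arterial connexin Gja5 by 1.63 (SE 0.13, 1.7e-13), and the transcription factors Erg and Sox18 by 1.42 (SE 0.15, 4.2e-10) and 1.36 (SE 0.18, 6.6e-08). Their summed intensity ran between 71712 and 79779 after IRI, against 82303 and 93666 after sham. Of 19 genes tested (20 listed) from a list of leukocyte counter-receptors, selectin ligands and related genes, 2 rose and 7 fell (median -0.24). Not all of the list is particular to leukocytes: it includes Podxl, Cd34 and Itgb1. Selplg, the selectin ligand PSGL-1, fell by 1.12 (SE 0.17, 8.9e-07), Spn, CD43, by 0.93 (SE 0.12, 1.6e-08), Itgb2, the beta chain of LFA-1 and Mac-1, by 0.76 (SE 0.23, 0.0062) and Fermt3, an activator of integrins, by 1.27 (SE 0.14, 4.2e-10).

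Markers of other cells were present in the endothelial pulldowns and moved with the injury, and their part in the results above was not tested. All 11 neutrophil markers tested rose after IRI, with a summed intensity of 14997 to 16382 after IRI, against 1835 to 3763 after sham. Of 7 platelet markers, 6 rose (sum 3156 to 4142 after IRI, against 1958 to 2295 after sham). Macrophage markers gave 1 higher and 7 lower of 10 (23465 to 32144 after IRI, against 38152 to 44608 after sham), and lymphocyte markers 0 higher and 5 lower of 8 (1039 to 1274, against 2199 to 2528). In the other lists fewer markers were called: of 9 pericyte markers none rose and 1 fell, of 9 proximal tubule markers 1 rose and 2 fell, of 8 thick limb markers 1 rose and 2 fell, of 8 collecting duct markers none rose and 2 fell, and of 6 podocyte markers none was called. The collecting duct sum was 3679 to 4900 after IRI, against 5412 to 8154 after sham and 3376 to 5011 without surgery. Without surgery, all 10 macrophage and all 8 lymphocyte markers, beside all 28 endothelial identity genes, were higher in the endothelial line than the mean of the other 3 lines. Against the myeloid line alone, the macrophage sum was lower, at 37080 to 38608 in endothelial arrays and 59454 to 62490 in myeloid ones, and the lymphocyte sums overlapped (2018 to 3417 in endothelial and 2587 to 2921 in myeloid arrays). Lyz2 itself, the lysozyme gene of myeloid cells, averaged 12.59 in endothelial arrays without surgery and 12.85 in myeloid ones.

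**Figure D3:**
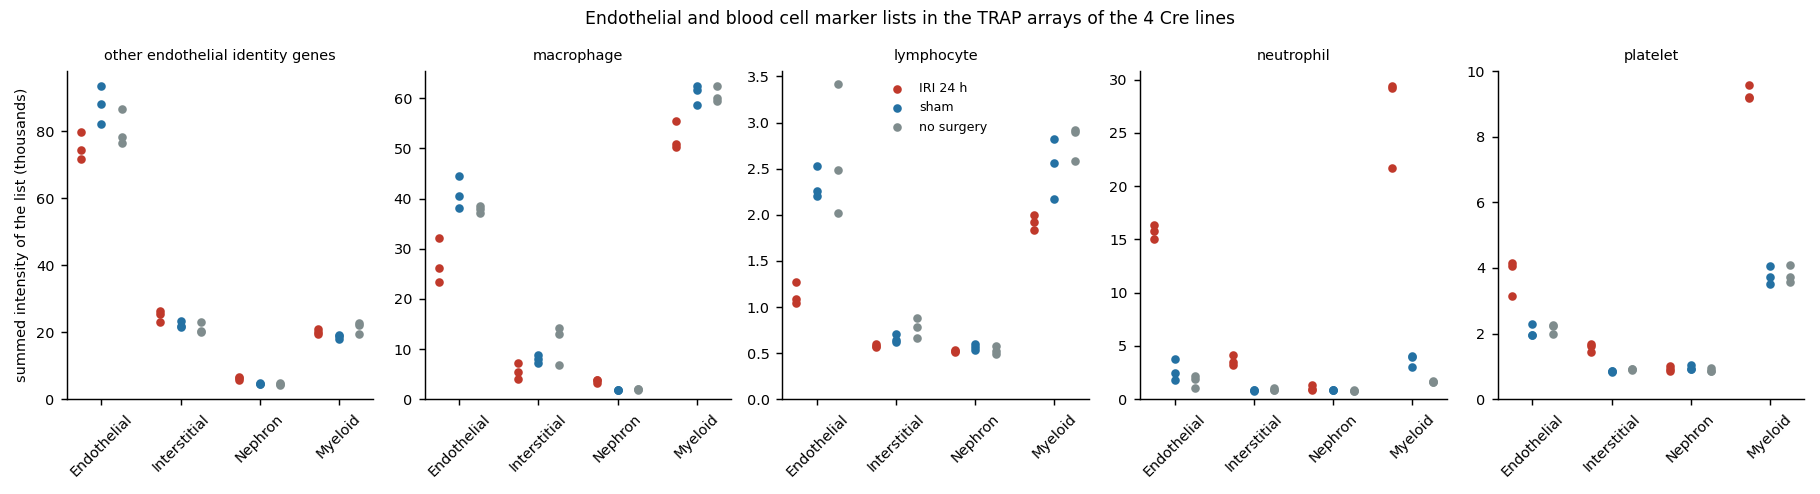
Summed intensity of 5 marker lists in each array of the 4 lines, at 24 h after IRI, after sham and without surgery. In the endothelial line the neutrophil sum was 14997 to 16382 after IRI, against 1835 to 3763 after sham, and the endothelial identity sum was 71712 to 79779, against 82303 to 93666.

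The injury response was then set beside those of the other lines. In the interstitial line 5 genes rose and none fell, where 39.1% of all genes were called (19.2% higher, 19.9% lower). That count was 2 without IRI replicate 3 and 3 without IRI replicate 2 or sham replicate 2. In the nephron line 4 rose and none fell, where 28.5% were called (13.8% higher, 14.7% lower). In the myeloid line 4 rose and 1 fell, where 27.8% were called (13.2% higher, 14.6% lower). The myeloid IRI mice were 9.5 weeks old and the myeloid sham mice 7 weeks, so age cannot be told apart from IRI there. Every test that uses the myeloid response shares this limit. Nephron sham (8 weeks) and no surgery (6 weeks) differ in age too. The median difference of the 8 genes was 0.52 in the interstitial, 0.76 in the nephron and 0.73 in the myeloid line, against 0.05, -0.04 and -0.02 over all genes.

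Sele read 6.89, 7.03 and 7.34 in interstitial arrays after IRI, against 6.67, 6.64 and 6.56 after sham, and the call (log2 difference 0.46 ± 0.19 SE, limma adjusted p = 0.049) was lost in 7 of 14 alternative analyses. It read 6.94, 6.96 and 7.12 in myeloid arrays after IRI, against 6.74, 6.56 and 6.65 after sham (0.36 ± 0.19, 0.18), and 6.88, 6.75 and 6.74 in nephron arrays after IRI, against 6.88, 6.93 and 6.96 after sham (-0.14 ± 0.19, 0.66). The Sele response of the endothelial line exceeded the mean of the other 3 lines by 2.02 ± 0.22 (adjusted p = 2.2e-09), in a test of the difference that called 28.5% of all genes.

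Icam1 read 9.73, 10.19 and 10.41 in interstitial arrays after IRI, against 9.54, 9.77 and 9.64 after sham, with overlap (log2 difference 0.46 ± 0.22 SE, limma adjusted p = 0.096). Nephron arrays read 8.98, 9.05 and 9.03 after IRI, against 8.72, 8.39 and 8.79 after sham (0.38 ± 0.22, 0.21), and myeloid arrays 9.96, 9.67 and 10.12, against 9.47, 9.12 and 9.47 (0.56 ± 0.22, 0.0501). In the nephron and myeloid lines every IRI array was above every sham array, although the test was missed.

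Icam2 fell in the myeloid line too, reading 7.20, 7.27 and 7.31 after IRI, against 7.65, 7.52 and 7.58 after sham (log2 difference -0.32 ± 0.11 SE, 1.25-fold lower, adjusted p = 0.018). That call was lost without myeloid IRI replicate 1 or sham replicate 1 and under quantile normalization (-0.21). Sham surgery had also lowered it there, against 7.91, 7.88 and 8.17 without surgery (-0.41 ± 0.11, 0.031), the only call among the 8 genes between sham and no surgery in any line. It was lost, leaving 0 calls, without any of the 3 sham arrays or without no-surgery replicate 1 or 3. Of all genes, 1.58% were called in that myeloid comparison (0.394% higher, 1.19% lower), 10.1% in the interstitial (5.37% higher, 4.7% lower) and 1.74% in the nephron line (0.99% lower). At an unadjusted p under 0.05 there were 3 in the myeloid, 1 in the interstitial and 0 in the nephron line. The Icam2 response was lower in the endothelial line than the mean of the other lines by -0.96 ± 0.12 (6.3e-08), and that of Icam1 was higher by 0.82 ± 0.25 (0.013).

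Pecam1, level in the endothelial line, was higher after IRI in the other 3. It read 10.20, 10.18 and 10.25 in myeloid arrays after IRI, against 9.39, 9.21 and 9.05 after sham (1.99-fold, limma adjusted p = 0.00011). In nephron arrays it read 7.87, 7.56 and 7.87 after IRI, against 6.97, 7.18 and 7.08 after sham (1.61-fold, 0.0067), and in interstitial arrays 9.63, 10.16 and 9.99, against 9.41, 9.24 and 9.38 (1.5-fold, 0.017). The IRI arrays lay above the sham arrays in each, and the interstitial call was lost without IRI replicate 2, IRI replicate 3 or sham replicate 2. The endothelial response of Pecam1 was lower than the mean of these by -0.81 ± 0.23 (0.0066).

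Cdh5 was higher after IRI in all 4 lines, by 0.67 ± 0.20 in the endothelial, 1.00 ± 0.20 in the interstitial, 0.94 ± 0.20 in the nephron and 1.00 ± 0.20 in the myeloid line (log2 difference ± SE). The endothelial response did not differ from the mean of the others beyond error (-0.31, 95% interval -0.79 to 0.16). Vcam1 was higher by 0.98 ± 0.32, 1.11 ± 0.32, 0.82 ± 0.32 and 1.11 ± 0.32 in the same order. It passed the test in the endothelial, interstitial (adjusted p = 0.0053) and myeloid lines (0.0073) and missed it in the nephron line (0.052). In the interstitial line its call was lost without IRI replicate 3 (0.85, 0.061).

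Procr was the only one of the 8 to rise by more than 5-fold in a line. It read 9.81, 10.10 and 10.33 in interstitial arrays after IRI, against 7.67, 7.79 and 7.46 after sham (5.42-fold, limma adjusted p = 1.9e-11). Nephron arrays read 9.53, 9.42 and 9.94 after IRI, against 7.18, 6.99 and 7.28 after sham (5.6-fold, 1.9e-11). Myeloid arrays read 8.83, 8.17 and 8.86, against 7.85, 7.67 and 7.64 (1.87-fold, 0.0018). No IRI array overlapped a sham array in any line, and the myeloid response was smaller than the mean of the other 3 by -1.39 ± 0.26 (0.00012; 18.2% of all genes called). The nephron response was larger by 0.72 ± 0.26 (0.043; 23% called), and the endothelial one did not differ from the others' mean beyond error (0.02, 95% interval -0.51 to 0.55).

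Emcn rose in the nephron line alone among the 4, to 9.00, 8.69 and 8.84 after IRI, against 7.40, 7.76 and 7.81 after sham (2.28-fold, limma adjusted p = 4e-05). The nephron response exceeded the mean of the others by 1.15 ± 0.25 (0.00077). Emcn differed by 0.10 (95% interval -0.35 to 0.54) in the interstitial and 0.03 (-0.42 to 0.47) in the myeloid line. The summed endothelial identity genes moved the same way in the nephron pulldowns, at 5794 to 6745 after IRI, against 4483 to 4972 after sham, and their part in the rise of Emcn, Pecam1 and Cdh5 there was not tested. In interstitial pulldowns that sum was 23025 to 26429 after IRI, against 21568 to 23311 after sham, and in myeloid ones 19562 to 21095, against 17992 to 19272. Neutrophil sums were 3234 to 4111 against 772 to 861 in the interstitial, 900 to 1375 against 830 to 871 in the nephron and 21695 to 29416 against 2997 to 4051 in the myeloid line.

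Across the 4 lines together, the responses differed for 6 of the 8 genes by limma's F test, where 46.4% of all genes were called: Sele (adjusted p = 8.2e-09), Icam2 (1e-07), Procr (0.00021), Emcn (0.0031), Pecam1 (0.015) and Icam1 (0.047). Cdh5 (0.67) and Vcam1 (0.93) were not among them. The Icam1 call is the least firm of these, lost in 17 of 32 alternative analyses.

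The gene lists fixed for the endothelial line moved as follows elsewhere, counted as risen and fallen after IRI against sham. Inflammatory genes gave 12 and 2 in the interstitial line (median 0.72), 10 and 0 in the nephron line (0.56) and 8 and 0 in the myeloid line (0.41). Endothelial identity genes gave 10 and 2, 7 and 0, and 5 and 3 in the same lines. Junction genes gave 8 and 3, 7 and 2, and 7 and 0, genes of the protein C list 7 and 3, 6 and 3, and 6 and 2, and counter-receptor genes 4 and 2, 3 and 1, and 4 and 2. The lists held 18 inflammatory, 28 identity, 22 junction, 14 protein C and 19 counter-receptor genes tested. Of all genes, 19.2% rose and 19.9% fell in the interstitial, 13.8% and 14.7% in the nephron and 13.2% and 14.6% in the myeloid line. In the endothelial line these shares were 21.1% and 21.7%. More endothelial identity genes rose than fell in each of the interstitial, nephron and myeloid lines, where 6 rose and 9 fell in the endothelial line. That contrast was not tested.

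The nephron line alone had an early time. Procr at 4 h did not differ from sham beyond error (log2 difference 0.21 ± 0.23 SE, limma adjusted p = 0.6), reading 7.18, 6.99 and 7.28 after sham, 7.41, 7.36 and 7.32 at 4 h, and 9.53, 9.42 and 9.94 at 24 h. It was 4.83-fold higher at 24 h than at 4 h (2.5e-10). Cdh5 was already 1.78-fold above sham at 4 h (0.0024) and did not differ further by 24 h beyond error (0.11, 0.79). Icam1 was 1.57-fold above sham at 4 h (0.03), reading 9.16, 9.70 and 9.01 at 4 h, against 8.72, 8.39 and 8.79 after sham. Of the 8 genes, 2 were called at 4 h against sham, both higher, where 18.4% of all genes were called (7.6% higher, 10.8% lower). Between 24 h and 4 h, 2 were called, both higher at 24 h, where 27.5% of all genes were called (14.8% higher, 12.7% lower). The other call between the times was Emcn, 1.59-fold higher at 24 h than at 4 h (0.019), with 7.40, 7.76 and 7.81 after sham, 8.18, 8.35 and 8.00 at 4 h, and 9.00, 8.69 and 8.84 at 24 h. Either count was 1 without some single arrays: at 4 h without sham replicate 1 or 2 or 4 h replicate 2, where the call of Icam1 was lost, and between the times without 24 h replicate 1 or 4 h replicate 3, where that of Emcn was lost. These comparisons share arrays, and the sham arrays were not taken at 4 h. The 4 h samples also carry a later run of sample numbers than all the others. Any difference in handling that goes with this cannot be told apart from time.

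**Figure D4:**
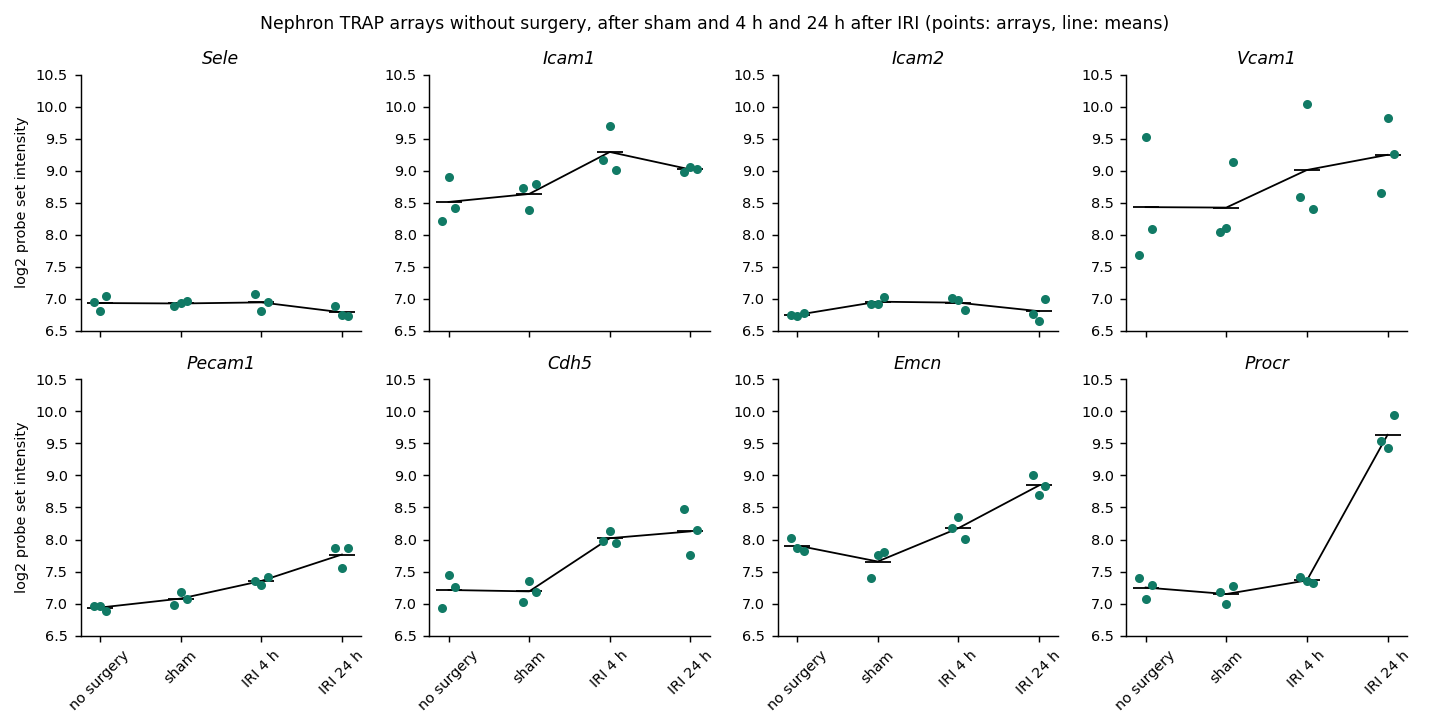
Log2 intensity of the 8 genes in each nephron array without surgery, after sham, and at 4 h and 24 h after IRI. Procr stayed between 7.32 and 7.41 at 4 h and stood between 9.42 and 9.94 at 24 h, while Cdh5 was above sham at both times.

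The background pulldowns, which hold RNA that came down without a Cre-driven tag, also carried these genes. After IRI the WT pulldown read 11.84, 11.57, 11.98 and 11.92 for Cdh5, and the endothelial line read 12.84, 12.93 and 13.00. Against the WT pulldown after IRI, all 8 genes were higher in the endothelial line, where 49.6% of all genes were called (26.5% higher). The log2 differences ran from 1.10 for Cdh5 to 2.05 for Procr, with Icam2 at 1.65, Vcam1 at 1.64 and Sele at 1.39. All 8 were also called without WT IRI replicate 1. After sham 7 of the 8 were higher than in the WT pulldown (55.9% of all genes called), with Icam2 at 2.69, Pecam1 at 2.05 and Cdh5 at 1.26; Sele did not differ (0.12).

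The other lines did not stand above the WT pulldown in this way. After IRI the nephron line was above it for Procr (log2 difference 0.81) and below it for 6 genes, with Cdh5 at -3.70, Pecam1 at -2.91 and Emcn at -2.83 (44% of all genes called). The interstitial line was above it for Procr (1.26), Vcam1 (0.75) and Emcn (0.59) and below it for 4 genes (34.1% called). That count of 7 was 4 without interstitial IRI replicate 1 or 3. The Vcam1 call was lost without WT IRI replicate 1 (limma adjusted p = 0.057). For Emcn, the interstitial line (12.26) overlapped the L10a pulldown (12.27) after IRI. The myeloid line was above the WT pulldown for Vcam1 (2.37) and below it for 3, Cdh5 at -1.18, Sele at -0.67 and Pecam1 at -0.47 (58.2% called). After sham the counts above and below the WT pulldown were 1 and 3 for the interstitial (42% of all genes called), 0 and 5 for the nephron (48.3%) and 2 and 2 for the myeloid line (53.2%).

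The background pulldowns responded to IRI as well. In the WT pulldown 6 genes rose and none fell (37.9% of all genes called, 20.2% higher), and in the L10a pulldown 6 rose and none fell (38.4% called, 19% higher). Sele read 7.62, 7.98, 7.75 and 7.34 in WT pulldowns after IRI, against 6.63 and 6.76 after sham (log2 difference 0.98 ± 0.20 SE, limma adjusted p = 0.00011). In L10a pulldowns it read 7.32, 7.59, 8.01 and 8.65, against 6.57 and 6.63 (1.29 ± 0.20, 1.5e-06). The IRI and sham arrays did not overlap in either. Procr was higher by 1.60 ± 0.24 (6.6e-07) in WT and 1.18 ± 0.24 (0.00011) in L10a pulldowns, and Cdh5 by 0.83 ± 0.22 (0.0018) and 1.44 ± 0.22 (7.3e-07). Vcam1 rose in the L10a pulldown (3.53-fold, 3.4e-05) and missed the test in the WT one (log2 difference 0.41 ± 0.34, 0.4). Its L10a sham mean (7.31) was the lowest of the 17 pulldown groups, against 9.21 in WT sham. After IRI, the L10a pulldown was above the WT pulldown for Emcn (0.60, 0.0089), the 1 gene of the 8 called, where 46.4% of all genes were called. With single arrays left out, 1 to 3 of the 8 were called.

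Icam1 gave its largest response in the L10a pulldown, 10.02, 10.44, 10.94 and 11.33 after IRI, against 8.26 and 8.32 after sham (5.24-fold, limma adjusted p = 4.5e-11). The mean of the L10a sham arrays (8.29) was the lowest of the 17 pulldown groups, against 9.63 in WT sham. After IRI the L10a (10.68) and WT (10.34) arrays overlapped. In the WT pulldown Icam1 was 1.64-fold higher (0.013), a call lost without WT IRI replicate 1 (log2 difference 0.51, 0.071), which left 5 of 8 called. Emcn rose in the WT pulldown (1.81-fold, 0.0029) and not beyond error in the L10a one (0.30 ± 0.23, 0.32), and without WT sham replicate 2 its WT adjusted p was 0.055. That array left 3 of the 6 WT calls when it was taken out. Icam2 did not pass the test in either, at -0.23 ± 0.11 (0.1) in L10a and -0.04 (0.83) in WT pulldowns. Endothelial identity sums were 31860 to 35911 after IRI, against 25563 to 26383 after sham, in L10a pulldowns and 20753 to 32221, against 23836 to 24774, in WT ones. The 2 backgrounds differed in other markers. Collecting duct sums were 14426 to 18076 after IRI and 33862 to 34340 after sham in L10a pulldowns. In WT pulldowns they were 3385 to 5286 and 6298 to 6375. Pericyte sums after sham were lower in L10a (2931 to 3080) than in WT pulldowns (14466 to 14681). The part of these cells in the responses was not tested.

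The endothelial response was therefore also set against that of the WT pulldown, gene by gene, in a test of the difference that called 27.6% of all genes. Sele rose by more in the endothelial line (1.27 ± 0.28, limma adjusted p = 0.00043), and Icam2 fell by more (-1.03 ± 0.15, 1.2e-06). Pecam1 (-0.76 ± 0.29, 0.045) and Emcn (-0.87 ± 0.32, 0.039), called higher after IRI in the WT pulldown and not in the endothelial line, also differed. Without WT IRI replicate 1, Pecam1 was at -0.61 (0.11). The calls of Pecam1 and Emcn were both lost, leaving 2, without any one of 9 arrays: each endothelial IRI array, endothelial sham replicates 1 and 3, WT IRI replicates 3 and 4 and both WT sham arrays. A replicate block also lost both, with Pecam1 at -0.73 (0.0986) and Emcn at -0.80 (0.109), and a fit of the compared groups alone lost Pecam1 (0.0527). For Icam1, Vcam1, Cdh5 and Procr the difference did not pass the test with all arrays.

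In total kidney RNA, 2 of the 8 genes rose after IRI (31.5% of all genes called, 15.7% higher). Icam1 read 8.38, 8.24 and 8.05 after IRI, against 7.18, 7.49 and 7.44 after sham (1.8-fold, limma adjusted p = 0.0026), and Procr read 6.16, 6.89 and 6.03, against 5.49, 5.41 and 5.21 (1.99-fold, 0.00074). Sele read 5.56, 5.41 and 6.32 after IRI, against 5.45, 5.22 and 5.38 after sham, and its call was missed (0.42, 0.09). With the total RNA arrays fitted by themselves, the call of Procr was lost (0.083). IRI replicate 3, which stood apart from its group, was lowest of the group for Pecam1, Cdh5 and Emcn and highest for Sele. Without it 4 genes rose: Cdh5 was higher by 0.87 (0.00026) and Pecam1 by 0.75 (0.0009), and Icam1 and Procr kept their calls. Without IRI replicate 2 instead, 4 genes were called, with Emcn lower by -0.94 (6.9e-05).

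Over all 17 pulldown groups, Sele was highest in the endothelial line after IRI (9.06), whose arrays overlapped no other group, and next in the L10a (7.89) and WT pulldowns (7.67) after IRI, which overlapped each other. Icam1 was highest in the endothelial line after IRI (11.62), also without overlap, followed by the L10a pulldown after IRI (10.68). Icam2 was highest in the endothelial line after sham (10.20) and without surgery (10.05), which overlapped, then in that line after IRI (9.13), and lowest in the nephron line without surgery (6.75). Vcam1 was highest in the myeloid line after IRI (11.99), ahead of the endothelial line after IRI (11.26) and the myeloid line without surgery (11.24), which overlapped.

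Pecam1 and Emcn had their 3 highest groups in the endothelial line with overlap among them, at 12.02, 11.98 and 11.97 for Pecam1 and 12.89, 12.88 and 12.87 for Emcn. Cdh5 was highest in that line after IRI (12.93), then without surgery (12.29) and after sham (12.26). Procr was highest in the endothelial line after IRI (10.87), followed by the interstitial (10.08) and nephron (9.63) lines after IRI, which overlapped, and only then by the endothelial line after sham (8.90).

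As a description over the means of these 17 groups, which share the array platform, Cdh5 and Pecam1 ran closest together (Pearson's r 0.98), with Emcn near both (0.91 with Cdh5 and 0.90 with Pecam1). Sele ran with Icam1 (0.74) and Procr (0.67) and little with Emcn (0.24), Icam2 (0.24) or Vcam1 (0.26). Among all genes tested, the patterns most like that of Sele were those of Inhbb (0.976), Islr2 (0.972) and Rrh (0.954). Those most like Icam2 were Myct1 (0.984), Klk8 (0.982) and Rflna (0.978), and those most like Pecam1 were Adgrl4 (0.989), Fscn1 (0.987) and Kdr (0.986). The 3 nearest to Cdh5 were Pecam1 (0.982), Kdr (0.981) and Fscn1 (0.981), and to Emcn they were Fabp4 (0.978), Eng (0.978) and Slc43a3 (0.966). Vcam1 was nearest to Tnfrsf1b (0.956), Ifngr1 (0.955) and Lilr4b (0.947). Icam1 had Fez2 (0.913), Mcam (0.898) and Slc10a6 (0.876), and Procr had Slc12a4 (0.922), Hilpda (0.917) and Slc7a6 (0.904).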

How the data were processed

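Ribosome-bound RNA (pulldowns) and total kidney RNA were read on arrays. Per the submitters' processing notes, the authors used Affymetrix Expression Console 1.3.1 with RMA; the deposited values are linear intensities from 7.15 to 19571, and log2 of them was taken here, although log2 values had been assumed when the tests were planned. Of 35556 probe sets, 21789 had 1 symbol, 1621 several and 12146 none; symbols were brought up to date by gene identifier. A gene was tested if its log2 intensity exceeded 5 in at least 3 arrays (19302 of 19938 genes).

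One limma fit (3.58.1, R 4.3.3) covered all 57 arrays in 19 groups as the labels give them (38 residual degrees of freedom). A call is a two-sided Benjamini-Hochberg adjusted p below 0.05 over all genes tested, and SE and intervals come from the same fit. Each gene has 1 estimate of spread there, shared by all groups. For Emcn, Pecam1 and Cdh5 it takes in the total RNA IRI arrays, with SDs of 1.09, 0.73 and 0.74. Replicates are labelled as biological, and no column belonged to another sample. On simulated data for the endothelial IRI comparison over 19302 genes, 66% of 50 genes changed by 1.5-fold and 92% of 50 changed by 2-fold were called, and 3.8% of the calls were false. There, 50 genes were changed at each of 1.5-, 2-, 4- and 8-fold, and no others. In the real comparison 42.8% of all genes were called, so these shares need not carry over to it.

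The genes and lists were chosen with earlier results of these data known. From each list up to 4 called genes with the largest change in the endothelial comparison are named, and for each gene the 3 most correlated over 17 group means, leaving out predicted genes. The alternatives were no filter, quantile normalization, separate fits of pulldown and total RNA arrays, a fit of the compared groups alone, a trended prior, the mean of a gene's probe sets, a replicate block, each array left out and, added after seeing the data, 2 arrays left out together. Figures were drawn with matplotlib 3.10.9 in Python 3.11.15. Promoter sequences are those of RefSeq on GRCm38.p6.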

Additional observations from a re-analysis of the deposited data

Results flagged for a closer look

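Of 64 tested differences between IRI responses of the 8 genes, 15 passed limma's adjusted threshold, and these are given as log2 differences of the response (IRI over sham). In 16 tests for an array lying outside its group of 4, none was marked. Icam1 in the WT pulldown after IRI gave the highest ratio of gap to range (0.81). Groups of 3 were not tested, so total RNA IRI replicate 3 could not be marked.

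In the endothelial line, against the mean response of the other 3 lines, Sele was higher by 2.02 and Icam1 by 0.82, and Icam2 was lower (-0.96), as was Pecam1 (-0.81). Against the WT pulldown's response the endothelial line was higher for Sele (1.27) and lower for Icam2 (-1.03), Pecam1 (-0.76) and Emcn (-0.87).

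In the nephron line, against the other lines, Sele was lower (-1.16), Emcn higher (1.15) and Procr higher (0.72). Against the WT pulldown the nephron line was lower for Sele (-1.12) and higher for Procr (0.89). The interstitial line was higher than the other lines for Icam2 (0.65), the gene that fell in the endothelial line, which is one of the lines it was set against. In the myeloid line Procr was lower (-1.39).

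The 4 lines share one fit, and each line enters the mean that the others are set against, so these differences are not independent of each other. Of all genes, 15.5% were called where the interstitial response was set against those of the other lines, and 22.5% where the nephron response was set against the WT pulldown's. Against the WT pulldown's response, limma called 0 of the 8 genes for the interstitial response (14.6% of all genes called) and 0 for the myeloid one (27.1%), with 2 and 3 at an unadjusted p under 0.05. These counts of 0 depended on the fit: with the pulldown arrays fitted apart, Emcn was called lower in both, at -0.76 (adjusted p = 8.8e-05) in the interstitial and -0.83 (9e-06) in the myeloid line.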

How the results depend on the processing

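Of 5040 single-gene results recomputed under an alternative, 4775 kept their side of the threshold, 151 lost the call, 114 gained one and 0 reversed a called direction. For results called in neither fit a change of sign was not counted, and the F test has no direction. Quantile normalization changed 19 of 280 results and a fit of the compared groups alone 33. Taking the mean of a gene's probe sets changed none of 280, but it could not test these genes. Each measured gene had 1 probe set, so its values were the same under that alternative. Those 280 results are counted among the 4775 and say nothing of how firm the calls are.

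In the 21 comparisons whose counts were planned as results, counts of the 8 genes called moved by over 1.5 times as follows. With the pulldown and total RNA arrays fitted apart, interstitial sham against no surgery gave 1 call and total RNA 1, where the fit of all arrays gave 0 and 2. With only the compared groups fitted, nephron 4 h against sham gave 4, total RNA 1 and myeloid sham against no surgery 0. Quantile normalization also gave 0 for myeloid sham against no surgery. Without total RNA IRI replicate 3 and WT IRI replicate 1 together, chosen after seeing the data, interstitial sham against no surgery gave 1 and total RNA 4. Leaving out each array in turn gave 2 to 4 calls for the endothelial against the WT response, 2 to 6 calls for interstitial IRI, 4 to 6 calls for the interstitial line against the WT pulldown after IRI, 0 to 1 calls for myeloid sham, 1 to 2 calls for nephron 24 h against 4 h, 1 to 2 calls for nephron 4 h, 2 to 4 calls for total RNA and 3 to 6 calls for the WT pulldown. The cause was not tested.

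Counts moved in other comparisons too. Against the WT pulldown's response, the interstitial line gave 1 call under quantile normalization, with pulldown arrays fitted apart, with only the compared groups and without the 2 arrays, and 2 with the replicate block, where the fit of all arrays gave 0. The myeloid line gave 1 to 3 under those 4 alternatives, 1 with a trended prior and 1 with the block, against 0, and the nephron line gave 1, against 2, under 3 of them. Against the other lines' responses, the interstitial count was 2 or 3 under 4 alternatives and the myeloid count 2 to 4 under 5, against 1 each. Without surgery, the myeloid count against the other lines was 4 with pulldown arrays fitted apart or without the 2 arrays and 1 with the block, against 2. The L10a against the WT pulldown after IRI gave 2 with only the compared groups and 3 without the 2 arrays, against 1.

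Single calls near the threshold were the interstitial rise of Sele (lost in 7 of 14 alternatives), the myeloid rise of Icam1, missed with all arrays (adjusted p = 0.0501) and gained in 7 of 14, and the larger nephron rise of Procr against the other lines (lost in 13 of 32).

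Whether replicate numbers pair the samples cannot be settled here, since each comparison had only 2 or 3 same-numbered pairs. In no comparison did every such pair correlate above 0.1, and single pairs ran from -0.58 to 0.51. Between sham and no surgery, all nephron pairs were positive (0.09 to 0.29) and all myeloid pairs negative (-0.58 to -0.20). A replicate block moved none of the 21 planned counts by over 1.5 times (6 calls in the endothelial IRI comparison, as without it), but it moved 5 of the other counts named above and changed which genes were called: for the endothelial against the WT response, 3 were called in place of 4, losing Pecam1 and Emcn and gaining Procr (0.86, adjusted p = 0.0298). It left 262 of 280 single-gene results on their side of the threshold. Counts over all genes moved by over 1.5 times in 9 comparisons with only the compared groups fitted, in 5 with pulldown or total RNA arrays fitted apart and in 7 without the 2 arrays.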
